A study of Ovis aries with 8 samples.

Results

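The genes described here are those of the tuberoinfundibular dopamine neurons, the arcuate nucleus cells that release dopamine into the portal blood of the pituitary. They were chosen by symbol as 9 named genes, TH, DDC, SLC18A2, SLC6A3, GCH1, DRD2, PRLR, MAOA and MAOB, of which 8 were found among the 33609 genes of the count table and PRLR, the prolactin receptor, was not analysed here. The tissue was the mediobasal hypothalamus of adult Ile-de-France ewes, food-restricted or well fed (ad lib), and its mRNA was sequenced. With 30 animals per diet in each of 2 years, 60 food-restricted and 60 well-fed ewes were used, and their RNA was mixed at random, 15 ewes to a pool, into 4 food-restricted and 4 well-fed libraries. The sources used here do not give the length and degree of the restriction, the reproductive state of the ewes or the year of each pool. Nothing in the labels says whether an ewe entered more than 1 pool, so p-values measure the spread between these mixes.

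Dopamine from these neurons holds back prolactin secretion by acting on D2 receptors of pituitary lactotrophs, and prolactin in turn stimulates the neurons through its receptor. Tyrosine hydroxylase (TH) makes L-DOPA from tyrosine with tetrahydrobiopterin, whose synthesis starts with GTP cyclohydrolase 1 (GCH1), and aromatic L-amino acid decarboxylase (DDC) turns L-DOPA into dopamine. The vesicular transporter VMAT2 (SLC18A2) loads dopamine into vesicles, the dopamine transporter (SLC6A3) takes it back up, and the monoamine oxidases MAOA and MAOB break it down.

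The food-restricted libraries held 41261774 to 42964514 counts and the well-fed libraries 36192025 to 48125991. Of the 33609 genes, 18193 had enough reads to be tested, all 8 dopamine neuron genes among them. Levels are given in CPM, read counts scaled to library size and composition, and n counts pools. The first principal component of all tested genes carried 34.7% of the variance and separated pools of the same feeding group. Food-restricted pools 1 and 2 and well-fed pools 3 and 4 lay below 0, and food-restricted pools 3 and 4 and well-fed pools 1 and 2 lay above 0. Food-restricted pool 4 lay nearest to 0, with a score of 9.23. The other pools above 0 scored 33.0 to 64.2, and those below 0 scored -46.2 to -29.4. Sequencing depth did not follow this split, with totals of 36192025 to 48125991 below 0 and 38257725 to 44855182 above 0.

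None of the 8 dopamine neuron genes passed the test for a difference between food-restricted and well-fed pools. All 8 had a log2 fold change below 0, as 47.1% of all tested genes did. Their median log2 fold change (food-restricted over well-fed) was -0.09, beside 0.01 over all tested genes. The edgeR quasi-likelihood test called 0 of 8 at an adjusted p under 0.05, where it called 0.0055% of all tested genes, and 0 of 8 at an unadjusted p under 0.05, where it found 1.7% of all tested genes in either direction and 1.03% lower. The feeding groups overlapped in each of the 8 genes, while they did not overlap in 1.6% of all tested genes, and in 1.1% they did not overlap and were lower in the food-restricted pools. DESeq2 and limma voom also called 0 of the 8. The count of 8 lower genes depended on single pools. Leaving out food-restricted pool 3 or well-fed pool 3 gave 4, and leaving out pool 4 of either group or well-fed pool 1 gave 5.

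**Figure D1:**
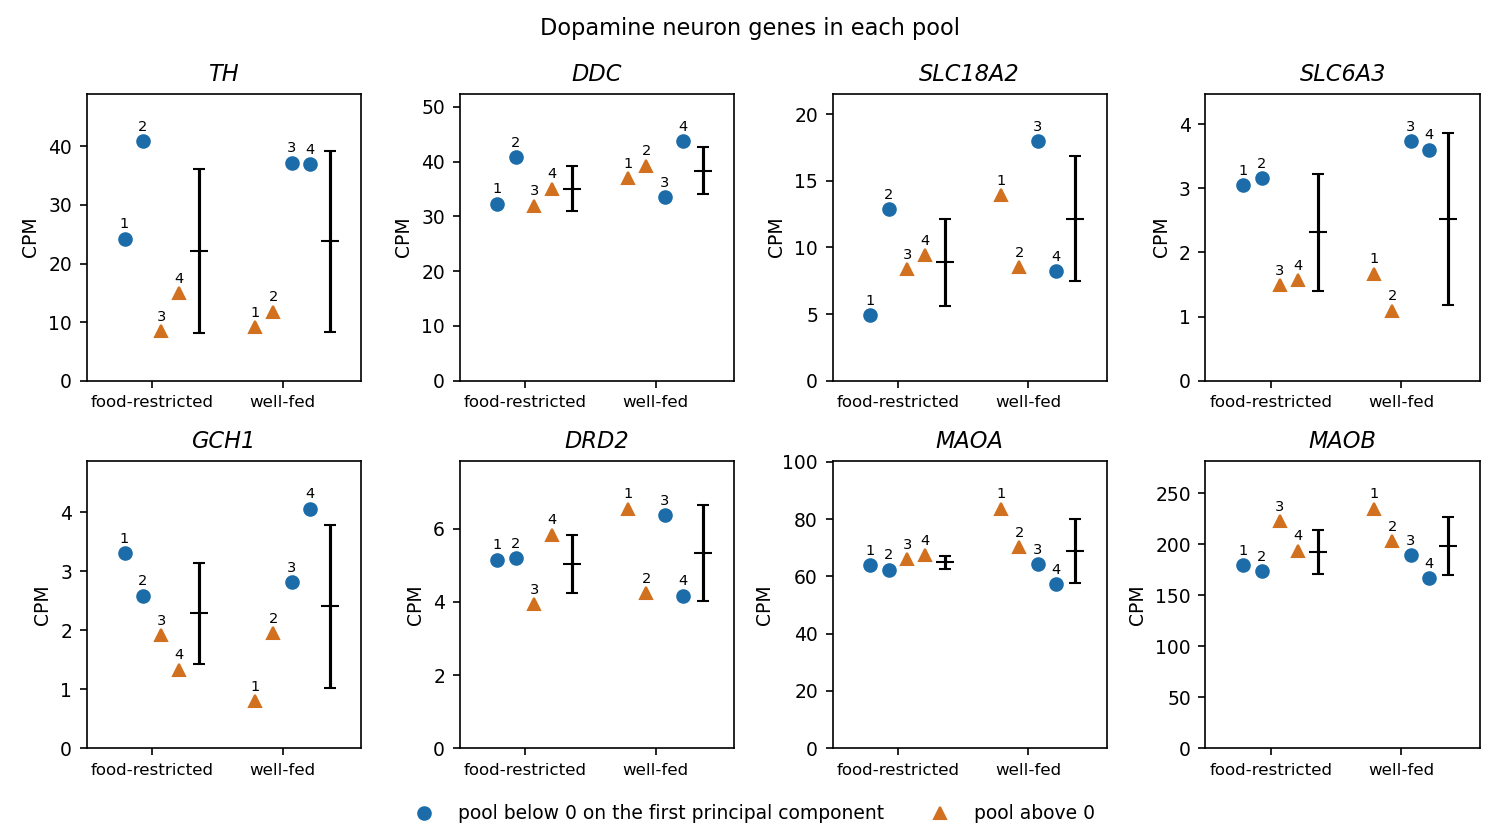
CPM of each dopamine neuron gene (vertical axes from 0) in the 4 food-restricted and 4 well-fed pools, numbered by pool. Blue circles are pools below 0 and orange triangles pools above 0 on the first principal component, and black bars are mean ± SD (n = 4). TH runs from 8.45 to 40.8 CPM in food-restricted pools and from 9.14 to 37.2 CPM in well-fed pools, and in both groups its circles lie above its triangles.

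TH (gene ID 101120619), the rate-limiting enzyme of dopamine synthesis, varied widely between pools of the same feeding group. Food-restricted pools 1 to 4 had 24.3, 40.8, 8.45 and 14.9 CPM, and well-fed pools 1 to 4 had 9.14, 11.8, 37.2 and 37.0 CPM. Each feeding group held 2 high and 2 low pools, so the groups overlapped fully. TH averaged 22.1 ± 14.1 CPM among food-restricted and 23.8 ± 15.4 CPM among well-fed pools (SD, n = 4 each), for a log2 fold change of -0.10 (SE 0.54, edgeR adjusted p = 1.00). The fold was 0.931 with a 95% interval of 0.408 to 2.12, so a halving or a doubling of TH lay inside it. Permuting the pools on the log2 CPM scale (exact, two-sided) gave p = 0.971, where 4 pools against 4 can give no less than 0.0286. The within-group SD of log2 CPM of TH was 1.02, beside a median of 0.27 over all tested genes, and 92.4% of these had a smaller one. TH had 362 to 1784 counts a pool. DBH, which marks noradrenaline neurons that also make TH, averaged 1.35 ± 0.839 CPM among food-restricted and 1.19 ± 0.733 CPM among well-fed pools (SD, n = 4 each), with 0.257 to 2.25 CPM over the 8 pools. In bulk tissue, fewer neurons of a type and less RNA per neuron cannot be told apart.

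GCH1 (gene ID 101112987), the first enzyme of the synthesis of the TH cofactor, had few reads and a wide spread between pools. It was at 3.30, 2.59, 1.91 and 1.33 CPM in food-restricted pools 1 to 4 and at 0.791, 1.95, 2.81 and 4.05 CPM in well-fed pools 1 to 4. The lowest and the highest of the 8 pools were both well fed. GCH1 averaged 2.28 ± 0.852 CPM among food-restricted and 2.40 ± 1.38 CPM among well-fed pools (SD, n = 4 each), and its log2 fold change was -0.07 (SE 0.47, edgeR adjusted p = 1.00), with a fold interval of 0.467 to 1.94. The lowest pool rested on 36 counts, with an exact Poisson 95% interval of 25.2 to 49.8 counts, and the highest on 144 counts, with an interval of 121 to 170. These intervals cover counting error only.

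DDC (gene ID 101106765), the second enzyme of the pathway, which serotonin neurons also use, was steady across pools. Food-restricted pools 1 to 4 had 32.3, 40.8, 32.0 and 35.1 CPM, and well-fed pools 1 to 4 had 36.9, 39.2, 33.5 and 43.7 CPM. The highest pool was well fed and the lowest food-restricted, and the pools between them were mixed. DDC averaged 35.1 ± 4.10 CPM among food-restricted and 38.4 ± 4.26 CPM among well-fed pools (SD, n = 4 each), for a log2 fold change of -0.13 (SE 0.13, edgeR adjusted p = 1.00). The 95% interval of the fold was 0.749 to 1.12. The SD of DDC within groups was 0.16 on the log2 scale, and 18.8% of tested genes had a smaller one, against 92.4% for TH.

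SLC18A2 (gene ID 101104796), the vesicular monoamine transporter, had the log2 fold change farthest from 0 of the 8 genes, and its pools overlapped. It was at 4.92, 12.9, 8.35 and 9.39 CPM in food-restricted pools 1 to 4 and at 13.9, 8.53, 18.0 and 8.22 CPM in well-fed pools 1 to 4. Food-restricted pool 1 was the lowest and well-fed pool 3 the highest, and food-restricted pools 2 and 4 lay above well-fed pools 2 and 4. The means were 8.88 ± 3.27 CPM among food-restricted and 12.2 ± 4.67 CPM among well-fed pools (SD, n = 4 each). The log2 fold change was -0.45 (SE 0.32, edgeR adjusted p = 1.00), and the fold was 0.730 with a 95% interval of 0.446 to 1.19. An exact two-sided permutation test gave p = 0.343. Without well-fed pool 3 the log2 fold change was -0.19, and without food-restricted pool 2 it was -0.67. VMAT2 also serves serotonin, noradrenaline and histamine neurons, and HDC, the enzyme of histamine synthesis, was present at 230 ± 13.0 CPM among food-restricted and 233 ± 48.8 CPM among well-fed pools (SD, n = 4 each).

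SLC6A3 (gene ID 101111908), the dopamine transporter, fell into 2 separate ranges of levels in each feeding group. Food-restricted pools 1 to 4 were at 3.04, 3.16, 1.49 and 1.57 CPM, and well-fed pools 1 to 4 at 1.67, 1.09, 3.73 and 3.60 CPM. The same 4 pools were high as for TH. SLC6A3 averaged 2.32 ± 0.910 CPM among food-restricted and 2.52 ± 1.34 CPM among well-fed pools (SD, n = 4 each), and its log2 fold change was -0.12 (SE 0.44, edgeR adjusted p = 1.00), with a fold interval of 0.467 to 1.8. Its counts were between 42 and 179 a pool.

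DRD2 (gene ID 101113525), the D2 dopamine receptor, did not divide the pools as TH and SLC6A3 did. Food-restricted pools 1 to 4 had 5.15, 5.20, 3.94 and 5.83 CPM, and well-fed pools 1 to 4 had 6.55, 4.24, 6.38 and 4.17 CPM. Well-fed pools 2 and 4 lay among the low values and well-fed pools 1 and 3 were the highest of all. DRD2 averaged 5.03 ± 0.790 CPM among food-restricted and 5.33 ± 1.31 CPM among well-fed pools (SD, n = 4 each), for a log2 fold change of -0.09 (SE 0.22, edgeR adjusted p = 1.00) with a fold interval of 0.668 to 1.33. The receptor is made by many neurons and by pituitary cells. The pituitary transcript PRL (prolactin) was at 89.4 ± 34.4 CPM among food-restricted and 74.7 ± 30.4 CPM among well-fed pools (SD, n = 4 each), while POU1F1, a factor that defines lactotrophs, was at most 0.285 CPM in any pool. Of the 10 tested pituitary markers, 4, PRL included, had a log2 fold change above 0 and 6 below 0, and the summed level of the list was 1244 to 1790 CPM in food-restricted pools, against 1083 to 1977 CPM in well-fed pools. The part of pituitary cells in the level of DRD2 was not tested.

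The 2 monoamine oxidases were the steadiest of the group after DDC. MAOA (gene ID 101106401), whose product prefers serotonin and noradrenaline and also breaks down dopamine, was at 64.0, 62.4, 65.9 and 67.4 CPM in food-restricted pools 1 to 4 and at 83.6, 70.3, 64.2 and 57.4 CPM in well-fed pools 1 to 4. The food-restricted pools lay close together, inside the range of the well-fed ones. MAOA averaged 64.9 ± 2.16 CPM among food-restricted and 68.9 ± 11.2 CPM among well-fed pools (SD, n = 4 each), for a log2 fold change of -0.09 (SE 0.13, edgeR adjusted p = 1.00) with a fold interval of 0.776 to 1.14. MAOB (gene ID 101106659), in the brain an enzyme of astrocytes and of serotonin and histamine neurons, was at 179, 174, 223 and 194 CPM in food-restricted pools 1 to 4 and at 235, 203, 190 and 167 CPM in well-fed pools 1 to 4. Both the highest and the lowest of these pools were well fed. Its means were 192 ± 21.9 CPM among food-restricted and 199 ± 28.4 CPM among well-fed pools (SD, n = 4 each), and its log2 fold change was -0.05 (SE 0.13, edgeR adjusted p = 1.00), with a fold interval of 0.796 to 1.18. The astrocyte markers measured beside it were GFAP, at 6060 ± 833 CPM among food-restricted and 6652 ± 471 CPM among well-fed pools, and AQP4, at 19.2 ± 4.18 CPM among food-restricted and 24.0 ± 10.7 CPM among well-fed pools (SD, n = 4 each). Of the 8 tested astrocyte markers, 4 had a log2 fold change above 0 and 4, these included, below 0, and the summed level of the list was 10018 to 11985 CPM in food-restricted pools, against 10741 to 11888 CPM in well-fed pools. The part of astrocytes in the level of MAOB was not tested.

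**Figure D2:**
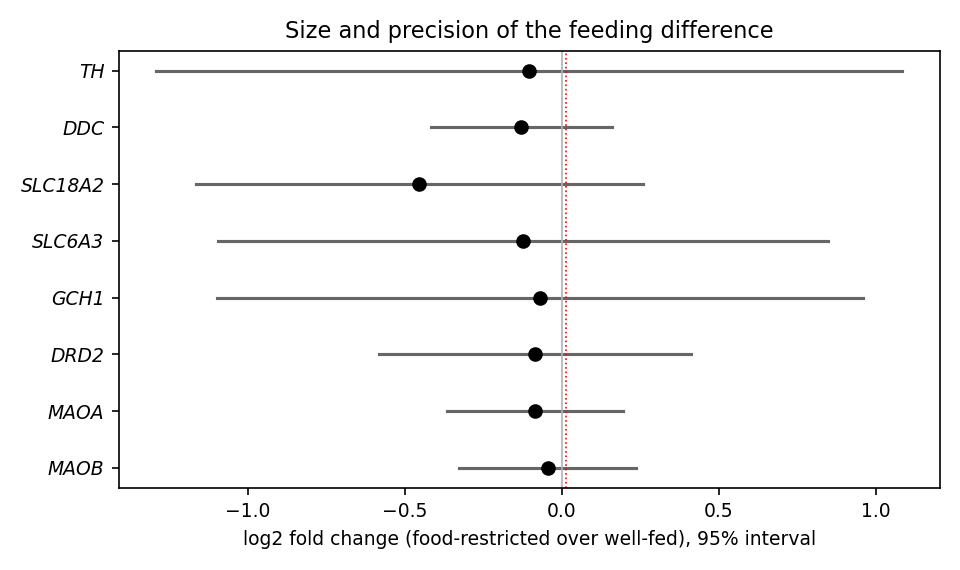
Log2 fold change of each dopamine neuron gene (food-restricted over well-fed, horizontal axis) with its 95% interval from the edgeR fit. The grey line marks 0 and the dotted red line the median of all tested genes, 0.01. All 8 points lie left of 0 and all 8 intervals cross it, the widest being that of TH (fold 0.408 to 2.12) and the narrowest those of MAOA, MAOB and DDC.

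The genes differed in how they followed the split of the pools along the first principal component. This component was computed from all tested genes, these 8 included, so the following ranges are a description with no test. TH was at 24.3 to 40.8 CPM in the 4 pools below 0 and at 8.45 to 14.9 CPM in the 4 above 0, SLC6A3 at 3.04 to 3.73 CPM below 0 and 1.09 to 1.67 CPM above 0, and GCH1 at 2.59 to 4.05 CPM below 0 and 0.791 to 1.95 CPM above 0. Both oxidases lay the other way, with MAOA at 57.4 to 64.2 CPM below 0 and 65.9 to 83.6 CPM above 0, and MAOB at 167 to 190 CPM below 0 and 194 to 235 CPM above 0. Thus 3 of the 8 genes were higher below 0 without overlap, as 14.2% of all tested genes were, and 2 were lower, as 8.93% were. The 5 together stand beside 23.1% of all tested genes, and nothing is read from this count, since these genes helped to set the sides. DDC (32.3 to 43.7 CPM below 0 and 32.0 to 39.2 CPM above 0), DRD2 (4.17 to 6.38 CPM below 0 and 3.94 to 6.55 CPM above 0) and SLC18A2 (4.92 to 18.0 CPM below 0 and 8.35 to 13.9 CPM above 0) overlapped.

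Within each side of the split, the feeding groups had 2 pools each, and no test was made. Below 0 the mean of TH was 32.6 CPM among food-restricted and 37.1 CPM among well-fed pools, a fold of 0.878, and above 0 it was 11.7 CPM among food-restricted and 10.5 CPM among well-fed pools, a fold of 1.12. SLC6A3 had folds of 0.846 below 0 and 1.11 above 0, and GCH1 of 0.857 below 0 and 1.18 above 0, so these 3 genes were lower in food-restricted pools on one side and higher on the other. SLC18A2 was lower on both, with folds of 0.679 below 0 and 0.790 above 0, and so was DDC, with 0.947 below 0 and 0.880 above 0. DRD2 (0.981 below 0 and 0.907 above 0) and MAOB (0.990 below 0 and 0.951 above 0) were also lower on both. MAOA had folds of 1.04 below 0 and 0.866 above 0. With the sides entered as a block in edgeR, the log2 fold change of TH was -0.02 with an SE of 0.19, that of SLC18A2 was -0.45 with an SE of 0.28, and none of the 8 genes was called. With 1 surrogate variable in place of the sides, TH was at -0.24 (SE 0.11) and SLC18A2 at -0.48 (SE 0.27). Again none of the 8 was called, so the TH estimate depended on how the split was handled.

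**Figure D3:**
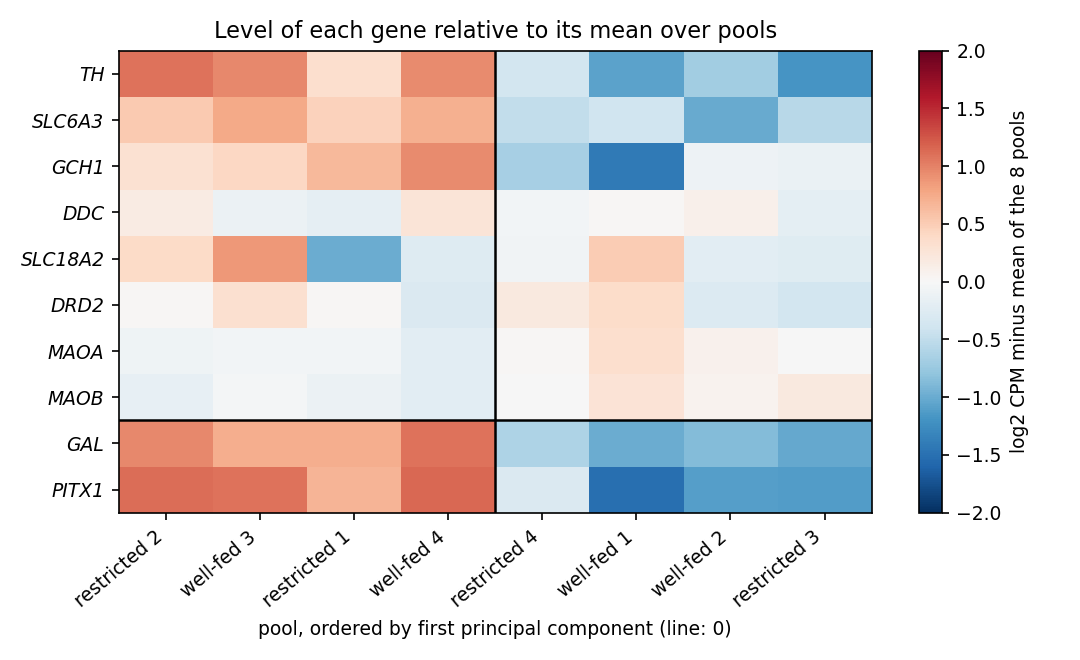
Log2 CPM of each gene in each pool minus its mean over the 8 pools (colour scale), with the pools ordered along the horizontal axis by the first principal component and the black vertical line at 0. TH, SLC6A3, GCH1, GAL and PITX1 are above their means in restricted pools 1 and 2 and well-fed pools 3 and 4 and below them in the other pools, and DDC, MAOA and MAOB vary least. GAL and PITX1, under the horizontal line, are shown for comparison, and both separated the sides. In the list of GABA and peptide genes that holds GAL, 3 of 8 did so, and in the pituitary list that holds PITX1, 3 of 10 tested did.

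The co-variation of the 8 genes was examined in 28 pairs over the 8 pools. As TH, SLC6A3, GCH1, MAOA and MAOB each fell into separate ranges on the 2 sides, no pooled correlation is given for their pairs, which leaves 3 pairs. SLC18A2 and DRD2 had a Pearson r of 0.58 (exact permutation p = 0.14, 0.356 when adjusted over the 28 pairs) and a Spearman rho of 0.79 (exact permutation p = 0.0279, adjusted 0.13), and r was 0.80 without the 2 pools farthest from the median of SLC18A2. DDC had an r of 0.15 with SLC18A2 (exact permutation p = 0.725, adjusted 0.76) and a rho of 0.095 (exact permutation p = 0.84, adjusted 0.871), and r was 0.25 without the 2 pools farthest from the median of DDC. With DRD2, DDC had an r of -0.23 (exact permutation p = 0.576, adjusted 0.76) and a rho of 0.024 (exact permutation p = 0.977, adjusted 0.977), and r was 0.08 without those 2 pools. None of the 3 pairs passed. MAOA and MAOB, which are neighbours in the sheep reference annotation, were both lowest in well-fed pool 4 and both higher in the 4 pools above 0.

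The genes most like TH in their pattern over pools were AP2A2, CD276, CLN8, RHBDD2 and SYT5, out of 13432 genes of at least 1 CPM ranked by the Pearson r of log2 CPM with TH. Their r lay between 0.994 and 0.997, and all 5 put the 8 pools in the same order as TH. AP2A2, an adaptor subunit of clathrin coats, ran from 146 to 227 CPM, and SYT5, a synaptotagmin of secretory vesicles, from 88.8 to 217 CPM. Without the 2 pools farthest from the median of TH, the 5 values of r were between 0.990 and 0.997. The 5 genes were picked by r over these same pools, so this is no check of their likeness to TH. The genes most like SLC6A3 were ZFAND3, YJEFN3, SEC14L1, YIPF2 and PPP1R37, with r between 0.971 and 0.980. These r values rank genes over 8 pools that fall on 2 sides, and they are descriptions.

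Other genes of the dopamine pathway were read from 8 lists. Of their 77 tested genes, 37 had a higher and 40 a lower mean in the food-restricted pools. The edgeR test called 0 at an adjusted p under 0.05, where it called 0.0055% of all tested genes. At an unadjusted p under 0.05 it found 0, beside 1.7% of all tested genes. DESeq2 and limma voom called 0 of them as well. The feeding groups did not overlap in 1 of the 77, ARRB2, where they did not overlap in 1.6% of all tested genes.

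Of the 8 enzymes and partners of tetrahydrobiopterin synthesis and recycling, 6 were above and 2 below 0 in log2 fold change, with a median of 0.03, and 0 passed. PTS, which follows GCH1 in the pathway, was at 20.3 ± 3.66 CPM among food-restricted and 17.1 ± 3.83 CPM among well-fed pools (SD, n = 4 each), for a log2 fold change of 0.25 (SE 0.19). QDPR, which regenerates the cofactor, was at 0.07 (SE 0.13) and GCHFR, the feedback regulator of GCH1, at -0.08 (SE 0.19). The sides of the principal component overlapped in all 8 of these genes.

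Among 5 tested enzymes of catecholamine breakdown beside MAOA and MAOB, the median log2 fold change was -0.06 and 0 passed. The aldehyde dehydrogenases ALDH2 and ALDH1A1 were at -0.06 (SE 0.10) and -0.08 (SE 0.12).

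Of the 10 tested dopamine receptors and signal partners, 5 were above and 5 below 0, with a median of -0.0049, and 0 passed. PPP1R1B (DARPP-32), a phosphatase regulator of dopamine-responsive neurons, was at 51.4 ± 5.1 CPM among food-restricted and 60.6 ± 6.92 CPM among well-fed pools (SD, n = 4 each), for a log2 fold change of -0.24 (SE 0.13). ARRB2, an arrestin that binds D2 receptors, was at 40.3 ± 3.49 CPM among food-restricted and 45.5 ± 1.19 CPM among well-fed pools (SD, n = 4 each), for a log2 fold change of -0.18 (SE 0.11, edgeR adjusted p = 1.00). GNAL, a stimulatory G protein subunit, was at -0.30 (SE 0.25). The D1 receptor DRD1 was at 7.90 ± 1.9 CPM among food-restricted and 7.72 ± 1.23 CPM among well-fed pools, DRD3 and DRD5 averaged under 1 CPM in both groups, and DRD4 had too few reads to be tested.

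Prolactin signalling was read from 9 tested genes downstream of the prolactin receptor, of which 3 were above and 6 below 0, with a median of -0.12, and 0 passed. STAT3, a transcription factor of cytokine receptors, was at 73.6 ± 10.2 CPM among food-restricted and 87.3 ± 17.5 CPM among well-fed pools (SD, n = 4 each), for a log2 fold change of -0.25 (SE 0.16). PTPN1, a phosphatase that acts on JAK kinases, was at -0.14 (SE 0.13) and CISH, a feedback inhibitor induced by STAT5, at 0.25 (SE 0.25). STAT5A, which carries the prolactin signal into the nucleus, was at -0.12 (SE 0.18).

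The transcription factors of dopamine neurons, 15 tested of 20, had a median log2 fold change of -0.02, with 6 above and 9 below 0, and 0 passed. DLX6, a homeobox factor of forebrain GABA neurons, was at 0.27 (SE 0.21) and NR4A2, a nuclear receptor of dopamine neurons, at -0.07 (SE 0.14). PITX3, which marks midbrain dopamine neurons, had 0, 11, 0 and 10 counts in food-restricted pools 1 to 4 and 6, 3, 23 and 36 counts in well-fed pools 1 to 4. Its highest levels, 0.48 and 1.01 CPM, were in well-fed pools 3 and 4, where TH was also high, and it was at 0 in food-restricted pool 1, where TH was high as well. EN1, EN2 and LMX1B, further midbrain markers, were at most 0.23, 0.31 and 0.33 CPM in any pool and under the filter. The part of midbrain neurons in the level of TH was not tested.

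The 8 genes for GABA and peptides known from arcuate dopamine neurons of rodents had a median of 0.03, with 5 above and 3 below 0, and 0 passed. TAC1, the precursor of substance P, was at 0.16 (SE 0.12), NTS (neurotensin) at 0.18 (SE 0.20) and GHRH at 0.09 (SE 0.17). Of the 8, 3 separated the sides of the principal component and all 3 were higher in the 4 pools below 0, as TH was: GAL (galanin), SLC32A1 (the vesicular GABA transporter) and PENK (enkephalin). GAL was at 26.4, 31.2, 7.89 and 10.5 CPM in food-restricted pools 1 to 4 and at 8.11, 8.81, 26.6 and 34.2 CPM in well-fed pools 1 to 4. It was singled out after its values were seen. Over all 8 lists, 14 of the 77 tested genes (18.2%) separated the sides, beside 23.1% of all tested genes.

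TPH2 and TPH1, the enzymes of serotonin synthesis, and GATA3 were at 0.71 (SE 0.49), -1.22 (SE 0.85) and -0.41 (SE 0.49) in log2 fold change at mean levels under 2 CPM in both feeding groups, with TPH1 at 0 in at least 1 pool. This list of other monoamine pathways had 8 tested genes, 2 above and 6 below 0, with a median of -0.12, and 0 passed. Of the 14 kinases, phosphatase subunits, adaptor proteins and transcription factors that act on TH or its gene, 8 were above and 6 below 0, with a median of 0.02, and 0 passed. The protein kinase A subunits PRKACA and PRKACB were at -0.26 (SE 0.16) and 0.23 (SE 0.15), and the kinase gene MAPK3 was at -0.11 (SE 0.09).

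**Figure D4:**
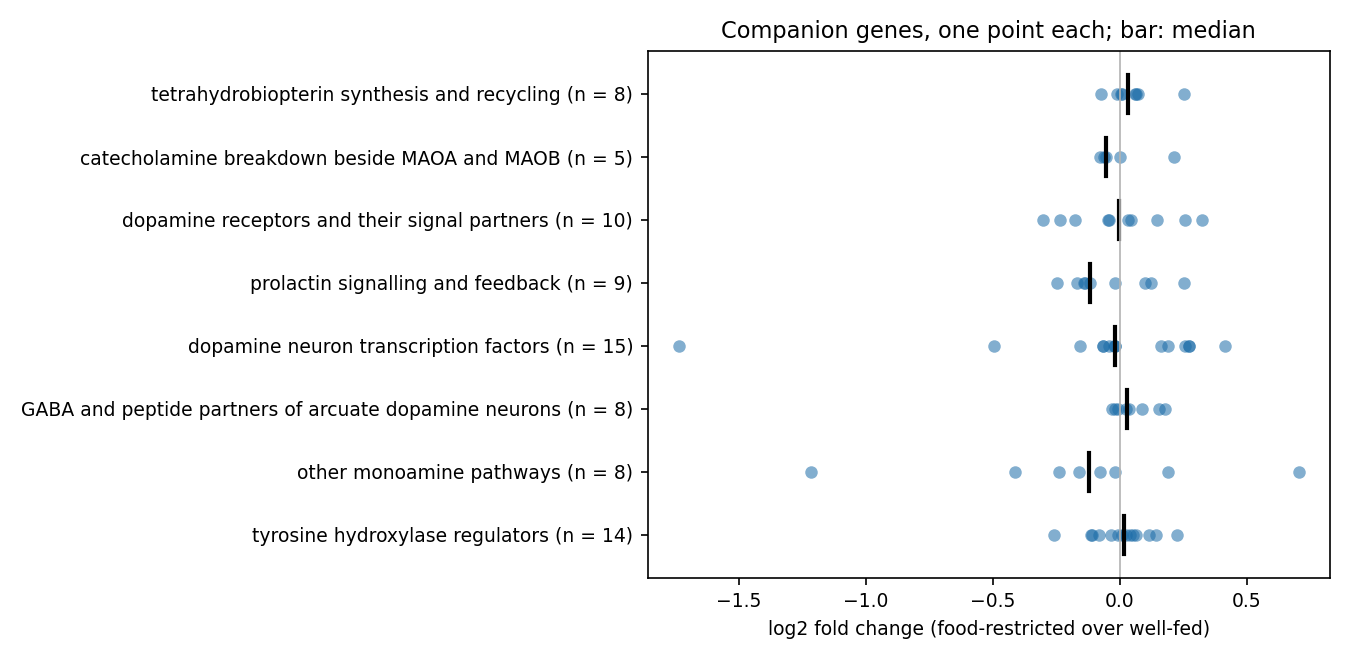
Log2 fold change (food-restricted over well-fed, horizontal axis) of every tested gene in the 8 lists of dopamine pathway genes, 1 point per gene, with n tested genes per list and the list median as a black bar. The medians lie between -0.12 and 0.03, and the points farthest from 0 are PITX3 and TPH1, both under 1 CPM on average.

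Markers of other cell types were read beside the split of the pools that TH followed, and their counts stand beside the 14.2% of all tested genes that were higher below 0 without overlap and the 8.93% that were lower. Of 10 tested pituitary markers, 3 were higher below 0, and the summed level of the list was 1244 to 1977 CPM below 0 and 1083 to 1790 CPM above 0. PITX1, a pituitary transcription factor, was at 84.2 to 117 CPM below 0 and 18.5 to 43.0 CPM above 0, while PRL overlapped. Of 12 tested arcuate and ventromedial markers, 2 were higher below 0, with list sums of 823 to 1042 CPM below 0 and 506 to 821 CPM above 0. Among these 12, AGRP was called between the feeding groups, a call that was lost with the replicate block and with any 1 pool left out. Of 9 tested general neuron markers, 1 was higher and 1 lower below 0, with list sums of 5106 to 5352 CPM below 0 and 5314 to 5721 CPM above 0.

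The glial and vascular lists were mixed. Of 8 tested astrocyte markers, 2 were lower and 1 higher below 0, with list sums of 10626 to 11985 CPM below 0 and 10018 to 11544 CPM above 0. Of 7 tested oligodendrocyte markers, 2 were higher below 0, with list sums of 4318 to 5476 CPM below 0 and 3852 to 4585 CPM above 0, and the myelin gene MBP was at 1925 to 2580 CPM below 0 and 1103 to 1388 CPM above 0. Of 8 tested endothelial markers, 1 was higher and 1 lower below 0, with list sums of 286 to 349 CPM below 0 and 269 to 305 CPM above 0, and the tight junction gene CLDN5 was at 14.4 to 22.7 CPM below 0 and 2.28 to 4.29 CPM above 0. Of 7 tested microglia markers, 1 was lower below 0, with list sums of 405 to 451 CPM below 0 and 369 to 425 CPM above 0. Of 9 tested tanycyte and ependymal markers, 1 was higher below 0, with list sums of 1472 to 1623 CPM below 0 and 1383 to 1671 CPM above 0. In the choroid plexus list, 0 of 9 tested markers separated the sides, with list sums of 52.0 to 90.5 CPM below 0 and 47.7 to 89.1 CPM above 0.

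Of 7 tested midbrain dopamine markers, SLC6A3 was higher below 0 and the other 6 overlapped. Their sums were 82.1 to 105 CPM below 0 and 96.3 to 109 CPM above 0, most of it from ALDH1A1, at 58.5 to 74.3 CPM below 0 and 71.4 to 82.3 CPM above 0, so the sum did not follow SLC6A3. The part of all these cell types in the levels of TH, SLC6A3, GCH1, MAOA and MAOB was not tested.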

How the data were processed

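RNA of the mediobasal hypothalamus was extracted with TriReagent and sequenced from stranded mRNA libraries, per the labels' protocols. The values deposited by the authors are raw read counts per gene, per the file headers. The submitters' processing notes name the counter featureCounts 2.0.0, the aligners Bowtie2 2.3.5.1 and TopHat2 2.1.1, and SAMtools 1.9, FastQC and bcl2fastq 2.20, in no order. Genome build, annotation and counting settings were not given in the sources used here, so overlapping genes are uncertain and no coordinates are printed. Of the gene IDs, 83.6% were found in a RefSeq table of the assembly ARS-UI_Ramb_v3.0, used for gene neighbours only. Within a group, every pair of pools differed beyond sampling noise (chi-square over its degrees of freedom from 25.1 to 169). No pool is thus a copy of another of its own group, but this cannot show that the pools are independent. Pools of different groups were not compared in this way. Each pool was counted as 1 replicate.

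Counts were filtered with filterByExpr (minimum count 10, minimum total 15), scaled by TMM and tested with edgeR 4.0.16 in R 4.3.3 (quasi-likelihood F test, no covariate, Benjamini-Hochberg adjustment over all 18193 genes kept, threshold 0.05). SEs were derived from the log2 fold change and its F statistic, and intervals use the moderated degrees of freedom. Log2 CPM has a prior count of 2. Single genes also had an exact permutation test over the 70 regroupings of the pools. The alternatives were RLE, upper-quartile or no scaling, other filters, a block for the replicate number, leaving out each pool, robust edgeR, DESeq2 1.42.0, limma voom (3.58.1), the side of the principal component as a block and 1 surrogate variable (sva 3.50.0). The genes, lists and tests were chosen with earlier results of these data known. Named were the 8 dopamine genes, the 3 genes with the smallest p of each pathway list (2 of these genes are not reported here), fixed markers, the 5 genes most like TH and SLC6A3, and others chosen after their values were seen (ARRB2's overlap, GAL, HDC, STAT5A, NR4A2, DRD1, DRD3, DRD5, SLC32A1, PENK, AGRP, MBP, CLDN5, EN2 and LMX1B). PRLR, and genes most like it, were not analysed here.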

Additional observations from a re-analysis of the deposited data

How the results depend on the processing

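The call of 0 of 8 dopamine neuron genes and 0 of the pathway list genes held under all 19 alternatives, and the lowest adjusted p of any of the 8 was 0.857, for TH and SLC18A2 with 1 surrogate variable. Over all genes the test as reported called 1, AGRP, and the alternatives called 0 to 7: 4 with DESeq2, 6 with the sides of the principal component as a block, 7 with 1 surrogate variable, and 0 with the replicate block or with any 1 pool left out. DDC and SLC18A2 kept a negative log2 fold change throughout, and the other 6 changed sign somewhere. GCH1 was at 0.043 with the replicate block, 0.12 with limma voom and 0.0065 with the sides as a block. With each pool left out in turn, the log2 fold change ran from -0.57 to 0.20 for TH, from -0.37 to 0.14 for SLC6A3, from -0.36 to 0.30 for GCH1, from -0.19 to 0.030 for DRD2, from -0.16 to 0.022 for MAOA and from -0.12 to 0.045 for MAOB. The count of genes below 0 ran from 4 to 8 and the median from -0.21 to -0.01. With the replicate block, 7 of the 8 genes were below 0, with a median of -0.06. Same-numbered pools deviated in opposite directions (correlations from -0.42 to -0.21), and 0 of 4 correlated best with its own number. Same-numbered pools lay on opposite sides of the principal component, so these correlations cannot tell whether they share more than a number. GCH1 and SLC6A3 had the fewest reads of the 8 genes, 36 to 179 counts a pool.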
